A study of Mus musculus with 3 samples.

Results

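Immediate early genes are the genes that a cell transcribes first after a stimulus, and 10 of them were followed here by symbol among the 26124 genes of each matrix. They are Fos, Fosb, Jun, Junb, Egr1, Atf3, Ier2, Btg2, Zfp36 and Dusp1, each present as 1 row. Single-cell RNA was counted with Chromium Single Cell 3′ chemistry in 2 libraries used here of 3 in the series, with 1 library for each group. The KO testis library came from 1 adult Tsc22d3 knockout of the goGermline line, whose testis was dissociated into a suspension of testicular cells by a published protocol. For the KO cauda library, cells of a goGermline Tsc22d3 knockout were drawn by needle from the cauda epididymis, where the epididymal duct stores sperm. Both groups carry the knockout, no wild-type or treated group exists among them, and goGermline males are hosts without their own sperm. The chimera cauda library was not used. Tissue, isolation and animal differ together between the libraries and cannot be told apart, and with 1 library in each group no test was possible, so all intervals are 95% intervals for counting error only.

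The KO testis held 134795047 UMIs in 18108 barcodes and the KO cauda 41862286 UMIs in 3937 barcodes, a UMI (unique molecular identifier) being 1 captured transcript molecule. Barcodes with at least 500 UMIs, at least 200 genes and at most 20% mitochondrially encoded UMIs were kept, 13662 and 3525 of them. Of the kept barcodes, 8 sequences occurred in both libraries and 0 of these fell in the same class. A gate on raw UMIs of fixed marker sets placed 10848 testis and 3076 cauda cells in classes, and left 20.6% and 12.7% unassigned. Each class bears the name of its marker set, as a gate and not as a histological identification. The 10 genes with the largest fold in each class of at least 50 cells held 1 to 5 of its own markers and 0 of any other set. Cells were gated on these same markers, so this is no independent support for the names. The testis classes of at least 50 cells were Leydig (3531 cells), fibroblast (2682), macrophage (2173), peritubular myoid or smooth muscle (1399), Sertoli (629), pericyte (183), endothelial (108) and germ (69). The cauda sample is labelled as epididymal cells, but 8 of its cells passed the epithelial gate, against 1897 B lymphocytes, 1054 macrophages and 107 T or NK lymphocytes. Tsc22d3 RNA was counted at 6.05 CPM (counts per 1000000 UMIs, 5.65 to 6.48) in the testis and 10.8 CPM (9.85 to 11.9) in the cauda, and a 3′ tag outside a deleted part checks nothing.

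Immediate early transcription needs no new protein, because the factors that drive it, such as SRF and CREB, already sit in the resting cell and are switched on by kinase signalling. Fos and Fosb proteins pair with Jun and Junb proteins into the AP-1 transcription factor, Egr1 and Atf3 are further transcription factors, and Ier2 is a small nuclear protein of the same response. Btg2, Zfp36 and Dusp1 act as brakes: Btg2 slows proliferation and promotes mRNA deadenylation, Zfp36 binds AU-rich mRNAs and speeds their decay, and Dusp1 removes phosphate from MAP kinases. These genes are known to rise in many tissues within the time that enzymatic dissociation takes.

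The DNA just before the start of 3 members and around a motif of Dusp1 is shown because these members mark the extremes of the comparisons that follow. Fos and Fosb had the largest excess in testis macrophages, Btg2 the smallest, and Dusp1 the most uneven level among stromal classes. The sequences are those of RefSeq on GRCm38.p6, 5′ to 3′ along the gene, and end at the base before the annotated start, except for the shorter Dusp1 stretch. Of the 10 members, 8 had an entry, which excludes Egr1 and Ier2. Capitals mark TGACGTCA (the cyclic AMP response element, CRE), its core TGACG or the reverse complement CGTCA, and the TATA motif TATAAA. The Fos stretch is chr12:85473640-85473889 on the plus strand, and the others lie on the minus strand at chr7:19310046-19310295 for Fosb, chr1:134079156-134079405 for Btg2 and chr17:26508597-26508626 for Dusp1. In GENCODE M21 the Fos and Btg2 stretches overlapped no protein-coding gene, and 6 bases of the Fosb stretch lay in a Fosb exon. The Dusp1 stretch lay within the annotated span of Dusp1, with 0 of its 30 bases in an exon.
Fos: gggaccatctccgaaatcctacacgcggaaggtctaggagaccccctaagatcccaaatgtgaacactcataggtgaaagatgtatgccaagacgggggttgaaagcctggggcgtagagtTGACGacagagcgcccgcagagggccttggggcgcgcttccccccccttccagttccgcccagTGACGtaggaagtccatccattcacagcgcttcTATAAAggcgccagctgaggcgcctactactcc
Fosb: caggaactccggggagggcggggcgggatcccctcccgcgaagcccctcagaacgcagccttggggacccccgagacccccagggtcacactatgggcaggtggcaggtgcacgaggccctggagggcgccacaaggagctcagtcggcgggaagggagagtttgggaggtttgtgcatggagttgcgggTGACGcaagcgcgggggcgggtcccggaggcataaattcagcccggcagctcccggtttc
Btg2: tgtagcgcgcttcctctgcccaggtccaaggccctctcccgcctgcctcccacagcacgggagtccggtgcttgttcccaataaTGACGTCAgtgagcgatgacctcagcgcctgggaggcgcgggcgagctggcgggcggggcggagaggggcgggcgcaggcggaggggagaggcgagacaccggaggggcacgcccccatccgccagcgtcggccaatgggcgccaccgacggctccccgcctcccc
Dusp1: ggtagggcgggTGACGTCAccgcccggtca

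Within the 250 bases before the start, on both strands, TGACGTCA was found in 2 of the 8 members (Btg2 and Dusp1), against 1.55% of 32851 promoters. In Btg2 it began 166 bases before the start and in Dusp1 143 bases before it. The core TGACG, which is also part of TGACGTCA, was found in 6 of the 8 members (Atf3, Btg2, Dusp1, Fos, Fosb and Junb), against 17.8% of promoters. TATAAA was found in Fos alone, against 12.4% of promoters, and the CArG box, which SRF binds, in Zfp36 alone, against 1.47%. All 250 bases of the Zfp36 window lay in a Zfp36 exon of GENCODE M21, and 47 of those of Dusp1 in a Dusp1 exon. The AP-1 motif TGANTCA was in none of the 8, against 6.75% of promoters. Such matches describe letters and not binding, and a missing match says only that these letters are not in this window.

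By annotated span 8 of the 10 members lay under the median of all protein-coding genes, and Dusp1 and Atf3 above it. The RefSeq starts of Dusp1 and Atf3 lie inside their annotated spans, so measured from those starts both genes would be shorter. The median span of the 10 was 4093 bases in GENCODE M21, against 17583 bases for 21725 protein-coding genes of the matrices, with a range from 1522 bases (Ier2) to 56539 bases (Dusp1). Their transcript with most exons held a median of 2.5 exons, against 7 for all. A UMI counts a molecule once at its 3′ end whatever its length, so the CPM of a gene is not scaled by length. Differences in capture between genes were not tested.

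In the KO testis the 10 genes together took 1507631 UMIs, 1.12% of the library, and in the KO cauda 30505 UMIs, 0.0729%. Among the 10774 testis cells in classes of at least 50 cells, 1177346 member UMIs were counted. Leydig cells, the androgen-making cells of the interstitium, held 31.6% of these while making up 32.8% of the cells and 58.9% of all UMIs. Fibroblasts held 29.0% of the member UMIs with 24.9% of the cells and 10.6% of all UMIs. Macrophages held 21.8%, peritubular myoid or smooth muscle cells 11.8%, endothelial cells 2.40%, Sertoli cells 1.92%, pericytes 1.42% and germ cells 0.0971%. Leydig cells and fibroblasts thus carried like numbers of member molecules, from very different totals.

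Scaled to the UMIs of each class, the summed members were highest in fibroblasts, at 32090 CPM (31982 to 32198), or 3.21% of everything counted there. Peritubular myoid or smooth muscle cells followed at 23475 CPM (23352 to 23598) and endothelial cells at 23004 CPM (22736 to 23274). Macrophages stood at 20411 CPM (20332 to 20490) and pericytes at 20273 CPM (19967 to 20583), whose ratio of 1.01 (0.991 to 1.02) did not exceed counting error. A step of 3.23-fold (3.18 to 3.28) separated pericytes from Leydig cells, at 6283 CPM (6263 to 6303). Sertoli cells, the nurse cells of the tubule, had 2596 CPM (2562 to 2630) and germ cells 798 CPM (752 to 846). From the highest to the lowest class the ratio was 40.2 (37.9 to 42.7). The 5 stromal, vascular and immune classes thus lay within 1.58-fold of each other, and the Leydig, Sertoli and germ classes lay apart from them and from each other. The 48 cells of the erythroid gate, at 12241 CPM, and the 18 T or NK lymphocytes, at 5416 CPM, were too few to be ranked.

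**Figure D1:**
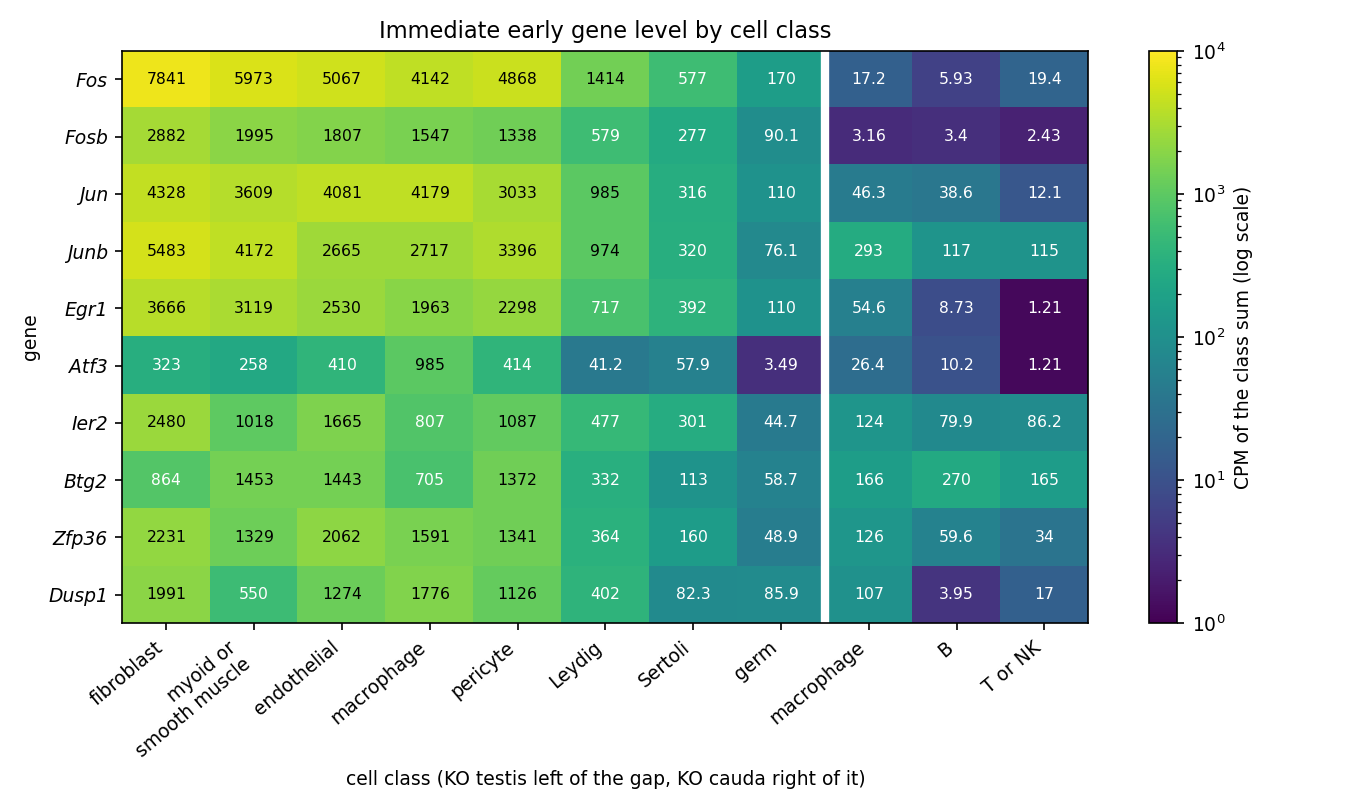
CPM of each of the 10 genes (rows) in the summed UMIs of each cell class (columns), on a log colour scale, with the value printed in each field; 8 KO testis classes stand left of the gap and 3 KO cauda classes right of it. Most genes are highest in the fibroblast column, at 7841 CPM for Fos, while Atf3 is highest in testis macrophages at 985 CPM.

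UMIs per cell gave a narrower picture, since Leydig cells held a median of 16143 UMIs and fibroblasts 3872.5. A fibroblast carried a mean of 127 member UMIs, a macrophage 118, a Leydig cell 105 and a myoid or smooth muscle cell 99.7. The fibroblast to Leydig ratio was 5.11 (5.08 to 5.13) in CPM, while these means per cell were close. Endothelial cells had the highest mean, 261 member UMIs at a median depth of 9466, pericytes had 91.1, Sertoli cells 35.8 and germ cells 16.6. Whether a class is counted in CPM or in molecules per cell therefore changes the place of Leydig cells, and the effect of RNA content and capture on this was not tested.

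Fos (ENSMUSG00000021250, chromosome 12, 85473890 to 85477273 on GRCm38), an AP-1 partner that does not pair with itself, was the member with most UMIs in fibroblasts, at 7841 CPM (7788 to 7894), where it ranked 5 among all genes. It stood at 5973 CPM in myoid or smooth muscle cells, 5067 in endothelial cells, 4868 in pericytes and 4142 in macrophages, the endothelial and pericyte intervals overlapping. Its level was 1414 CPM in Leydig cells, 577 in Sertoli cells and 170 in germ cells, 46.2-fold (40.8 to 52.6) below fibroblasts. Fos held 20.3% to 25.4% of the member UMIs in each of the 8 testis classes, so its share of the response differed little although its level differed widely. Fosb (ENSMUSG00000003545, chromosome 7, 19302696 to 19310051), its paralog, ran from 2882 CPM in fibroblasts through 1995 in myoid or smooth muscle cells to 90.1 in germ cells, with no overlapping neighbours.

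Jun (ENSMUSG00000052684, chromosome 4, 95049034 to 95052222), the core AP-1 subunit, was the most level of these 4 genes across the upper classes. It was counted at 4328 CPM in fibroblasts, 4179 in macrophages, 4081 in endothelial cells, 3609 in myoid or smooth muscle cells and 3033 in pericytes, with overlapping intervals for macrophages and endothelial cells. It fell to 985 CPM in Leydig, 316 in Sertoli and 110 in germ cells. Junb (ENSMUSG00000052837, chromosome 8, 84974484 to 84978718), a Jun relative with weaker transactivation, spread more, from 5483 CPM in fibroblasts and 4172 in myoid or smooth muscle cells to 2717 in macrophages and 2665 in endothelial cells. Its fibroblast to germ ratio of 72.0 (59.7 to 87.8) was the largest of the 8 members that were highest in fibroblasts.

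Egr1 (ENSMUSG00000038418), a zinc finger activator, followed the order of Fos, with 3666 CPM in fibroblasts, 3119 in myoid or smooth muscle cells, 2530 in endothelial cells, 2298 in pericytes and 1963 in macrophages. Ier2 (ENSMUSG00000053560, chromosome 8, 84661331 to 84662852) was concentrated in fibroblasts at 2480 CPM (2451 to 2511), with 1665 in endothelial cells and 807 in macrophages. Atf3 (ENSMUSG00000026628, chromosome 1, 191170296 to 191218039), a stress-induced member of the ATF/CREB family, had another order. It was highest in macrophages at 985 CPM (968 to 1002), followed by pericytes at 414 and endothelial cells at 410, whose intervals overlap, and by fibroblasts at 323. In Leydig cells it stood at 41.2 CPM, in Sertoli cells at 57.9 and in germ cells at 3.49 (1.13 to 8.15). Atf3 was thus the only member of the 10 with macrophages at the top, and the only one lower in Leydig than in Sertoli cells.

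Among the genes that restrain the response, Btg2 (ENSMUSG00000020423, chromosome 1, 134075170 to 134079120) was highest in the mural and vascular classes. Myoid or smooth muscle cells had 1453 CPM (1422 to 1484), endothelial cells 1443 (1377 to 1512) and pericytes 1372 (1293 to 1455), all overlapping, ahead of fibroblasts at 864. Dusp1 (ENSMUSG00000024190, chromosome 17, 26505590 to 26562128) split the same classes the other way, with 1991 CPM in fibroblasts and 1776 in macrophages but 550 (531 to 569) in myoid or smooth muscle cells. Dusp1 was also the only member whose lowest class was Sertoli, at 82.3 CPM, which overlapped germ cells at 85.9. Zfp36 (ENSMUSG00000044786, chromosome 7, 28376784 to 28380253) ran from 2231 CPM in fibroblasts and 2062 in endothelial cells to 160 in Sertoli and 48.9 in germ cells, and pericytes and myoid or smooth muscle cells overlapped at 1341 and 1329. The members therefore shared the gap between the upper 5 classes and the lower 3, but not the order within the upper 5.

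Each class was also set against the mean CPM of the other 7 over 15963 genes. In fibroblasts 7 of the 10 members were at least 2-fold higher, where 7.60% of all genes were, and Jun at 1.86-fold, Btg2 at 1.10-fold and Atf3 at 1.04-fold were not. Of the other upper classes, macrophages had 2 such members (Atf3 at 4.57-fold and Dusp1 at 2.26-fold, with 11.1% of all genes), endothelial cells 2 (Btg2 and Zfp36, with 18.8%), myoid or smooth muscle cells 1 (Btg2 at 2.08-fold, with 10.7%) and pericytes 0 (with 21.8%). Of these counts, that of fibroblasts stood furthest from the share of all genes. All 10 members were at least 2-fold lower in Leydig cells, in Sertoli cells and in germ cells, where 42.5%, 33.8% and 27.8% of all genes were.

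Free RNA from broken cells enters every barcode, and a cluster of 38 erythroid barcodes, which should lack these genes, was taken as its level. The erythroid gate held these 38 among its 48 barcodes, which together stood at 12241 CPM. The rest of the gate fell in other clusters and was left out, so the level is that of a chosen part. The 38 barcodes had a median depth of 1535.5 UMIs and held a mean of 1.79 member UMIs, with a highest value of 6, which came to 1033 CPM. Fos was seen in 42.1% (26.3 to 59.2) of them, Junb in 28.9%, and the other 8 members in 2.63% to 18.4%. The summed level of germ cells, 798 CPM, was not above 1033 CPM, while that of Sertoli cells, 2596 CPM, and of every other class was. Germ cells had a median depth of 18777 UMIs, so these CPM come from unlike depths. Per barcode, germ cells held a mean of 16.6 and a median of 6 member UMIs, against 1.79 and 2 in the erythroid barcodes.

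The UMIs of the 8 Leydig markers, such as Insl3 and Star, give a second measure of free RNA. Outside Leydig cells they were nearly level, with a mean of 3.70 per fibroblast, 5.24 per macrophage, 6.83 per Sertoli cell, 6.22 per germ cell and 5.47 per erythroid barcode. For each Leydig marker UMI there were 0.327 member UMIs in erythroid barcodes, 2.66 in germ cells, 5.25 in Sertoli cells, 18.8 in pericytes, 22.1 in myoid or smooth muscle cells, 22.5 in macrophages, 34.3 in fibroblasts and 47.8 in endothelial cells. For germ cells the measures differed: their summed CPM was not above that of the erythroid barcodes, while their member UMIs for each Leydig marker UMI were. The part of free RNA in the germ and Sertoli levels was not tested.

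The Sertoli level depended in part on doublet-scored cells, and the germ level on few cells. The 68 Sertoli cells that scored as simulated doublets had 6818 CPM of members, and the other 561 had 2018 CPM. In Leydig cells the difference was smaller, 8091 CPM in 676 doublet-scored cells and 5801 CPM in the rest. In germ cells 6 of the 69 cells held 63.8% of the member UMIs, up to 280 in 1 cell, and without them the class stood at 346 CPM. The germ sum thus rests on few cells, and the Sertoli sum in part on doublet-scored cells.

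Cells with a low mitochondrial share held more member UMIs in all 8 testis classes. When each class was cut into 3 equal groups by mitochondrial share, the lowest group had 35551 CPM and the highest 27027 in fibroblasts, 26896 and 19058 in myoid or smooth muscle cells, 22671 and 17795 in macrophages, and 7606 and 5171 in Leydig cells. In the cauda the direction was the opposite, with 938 CPM in the lowest and 1012 in the highest group of macrophages. Depth moved with the members in both directions: fibroblasts rose from 25404 CPM in the shallowest group to 35113 in the deepest, and testis macrophages went from 22806 to 18647. No group of fibroblasts fell below the class sum of macrophages, and no Leydig group reached that of any upper class. What mitochondrial share and depth contribute to the class order was not tested.

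To see how evenly the members were spread over the cells of a class, each cell was thinned at random to 2000 UMIs, and shallower cells, 289 of the fibroblasts and at most 102 of any other of these classes, were left out. A thinned fibroblast held a mean of 62.6 member UMIs (SD 29.8 over cells), with a median of 63 and the middle 50% of cells between 42 and 83. Myoid or smooth muscle cells held 45.8 (SD 22.3), macrophages 42.4 (SD 23.9), pericytes 40.4 (SD 25.4) and endothelial cells 39.1 (SD 24.1). Leydig cells held 12.8 (SD 10.4, median 11), Sertoli cells 4.83 (SD 5.54, median 3) and germ cells 1.49 (SD 4.89, median 0). In the upper classes the median cell therefore sat close to the class mean, whereas in Sertoli and germ cells the mean lay above the median cell.

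**Figure D2:**
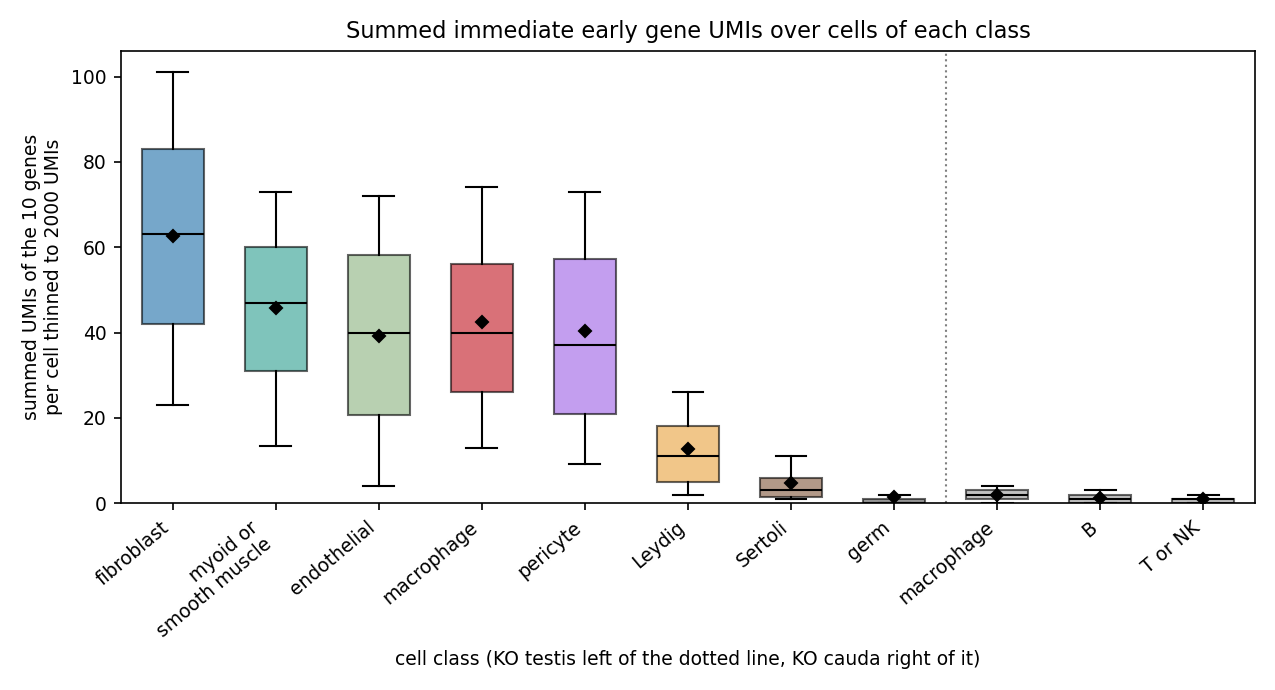
Summed UMIs of the 10 genes in cells thinned to 2000 UMIs, by class; boxes span the middle 50% of cells with the median as a line, whiskers reach the 10th and 90th percentiles, and diamonds mark means. The fibroblast median is 63 and the Leydig median 11, and the 3 KO cauda classes right of the dotted line have medians of 2, 1 and 1.

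The 10% of cells with most member UMIs held 18.2% of them in fibroblasts, 18.5% in myoid or smooth muscle cells, 19.2% in endothelial cells, 21.2% in macrophages and 22.1% in pericytes. A Poisson spread around 1 common level would have given 12.3% to 12.9% in these classes. In Leydig cells the top 10% held 27.3% (26.9 to 27.7), where a Poisson spread gives 15.2%, in Sertoli cells 36.8% against 18.6%, and in germ cells 67.0% against 26.0%. Member UMIs were thus spread over most cells of the upper classes, less evenly over Leydig cells, and held by few germ cells.

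Several members were often seen in the same cell. Cells in which 8 or more of the 10 members had a UMI made up 81.2% of thinned fibroblasts, 73.4% of macrophages, 62.6% of myoid or smooth muscle cells, 21.4% of Leydig cells and 2.41% of Sertoli cells. All 10 were seen together in 35.2% of endothelial cells and 24.3% of macrophages, against 15.2% of fibroblasts, in which Atf3 was the member most often missing. No member was seen in 0.585% of fibroblasts, 1.21% of macrophages, 4.81% of Leydig cells, 8.35% of Sertoli cells and 58.0% of germ cells.

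**Figure D3:**
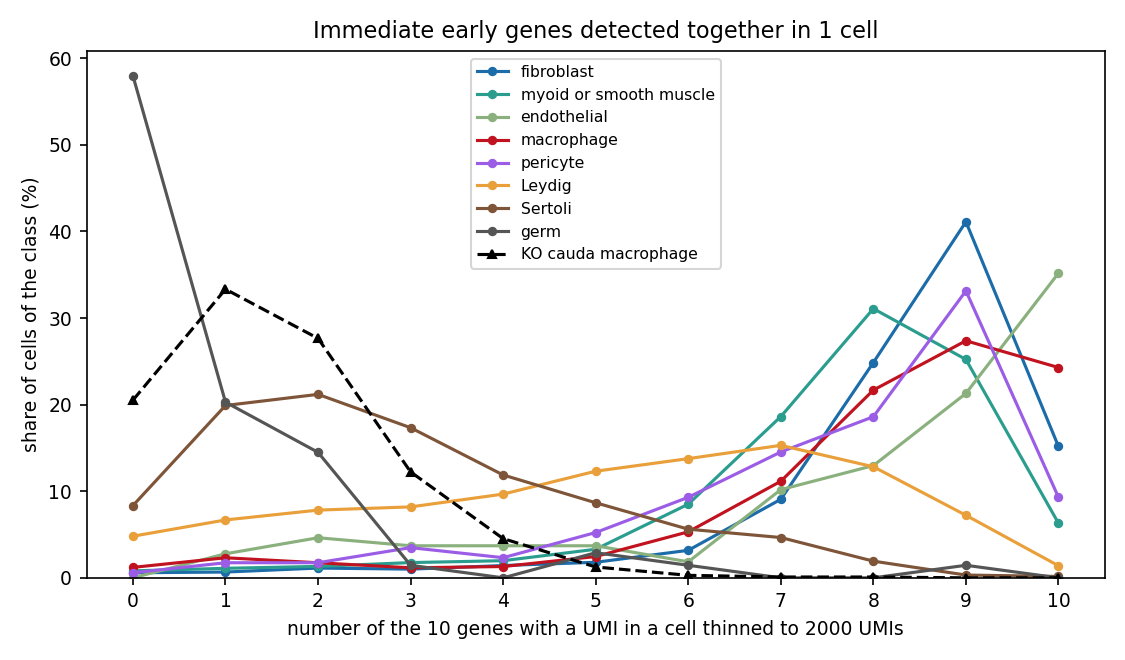
Number of the 10 genes with at least 1 UMI in a cell thinned to 2000 UMIs (horizontal axis) against the share of cells of the class (vertical axis), 1 line per class. The fibroblast line peaks at 9 genes with 41.1% of cells, the Leydig line is broad around 7 genes with 15.3%, and the KO cauda macrophage line peaks at 1 gene with 33.3%.

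For single members the share of cells with a UMI was set beside the share that the class mean and a Poisson spread would give. Observed shares were below the Poisson shares for 10 of 10 members in each testis class except germ cells, where 8 were below. The gap exceeded the interval of the observed share for 9 members in endothelial, 7 in Sertoli and 1 in germ cells, and for 10 in each other class. Fos was seen in 96.5% of thinned fibroblasts, 93.3% of macrophages, 75.5% of Leydig cells (Poisson 94.3%), 49.1% of Sertoli cells (Poisson 66.9%) and 17.4% of germ cells. These Fos shares of Sertoli and germ cells do not exceed the interval of the erythroid barcodes. The Ier2 share of Sertoli cells, 42.4%, lies above the 5.26% of those barcodes. The erythroid barcodes, at a median of 1535.5 UMIs, were not thinned, so these shares are unlike measures. Unthinned, Fos was seen in 82.8% of Sertoli and 62.3% of germ cells, at median depths of 13845 and 18777 UMIs. The part of free RNA in these shares was not tested. The largest departure in share was that of Atf3 in macrophages, seen in 61.3% of cells where a Poisson spread gives 87.4%. Atf3 also had the widest gap of the 10 in fibroblasts (24.8% against 45.8%) and in myoid or smooth muscle cells (18.0% against 39.8%). At high means this gap is limited, the Poisson share of Fos in macrophages being 99.98%. The ratio of variance to mean was higher for Fos than for Atf3 in macrophages (4.54 against 3.54) and fibroblasts (4.66 against 3.30). In myoid or smooth muscle cells it was lower (4.17 against 5.06). Btg2 and Zfp36 had the smallest ratios of variance to mean in Leydig cells apart from Atf3, at 1.60 and 1.52, where Fos had 2.85. The widest gap was that of Fosb in endothelial cells and pericytes, and that of Fos in Leydig and Sertoli cells.

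**Figure D4:**
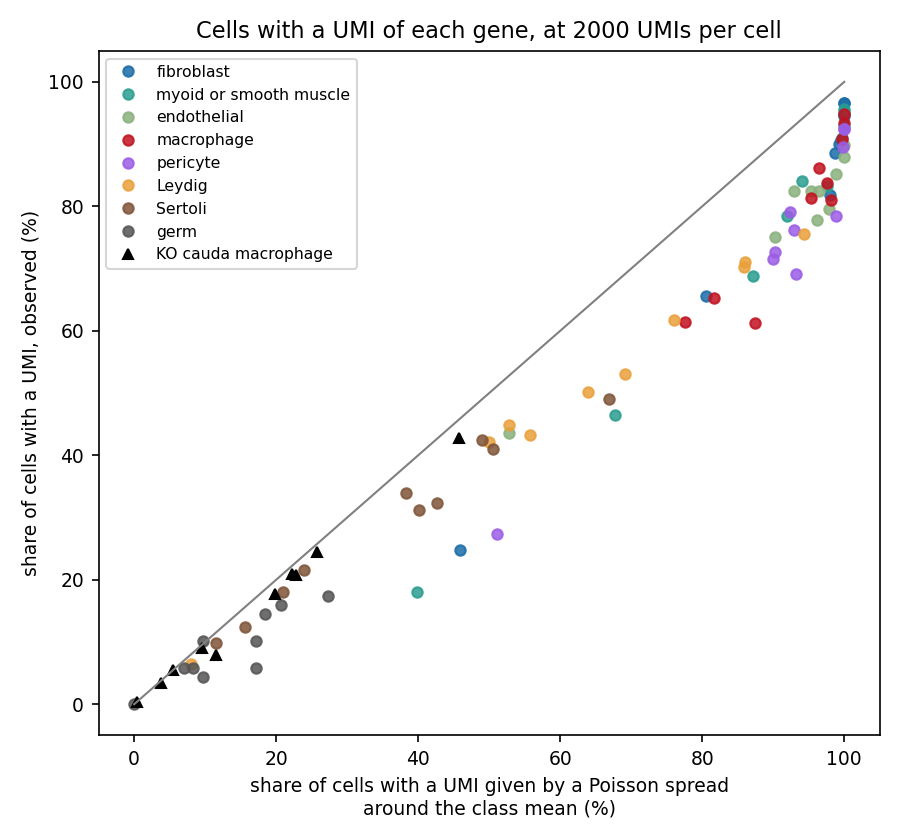
Share of cells with a UMI of each gene (vertical axis, %) against the share that a Poisson spread around the class mean would give (horizontal axis, %), in cells thinned to 2000 UMIs; each point is 1 gene in 1 class and the line marks equality. Testis points lie below the line apart from Btg2 and Atf3 in germ cells, Leydig Fos for example at 75.5% against 94.3%, and KO cauda macrophages (triangles) lie close to it.

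Within a class the members rose and fell together from cell to cell. Over thinned cells, Spearman's rho between pairs of members had a median of 0.355 in 2071 macrophages, 0.329 in 2393 fibroblasts, 0.316 in 3516 Leydig cells, 0.279 in 1364 myoid or smooth muscle cells and 0.162 in 623 Sertoli cells, over 45 pairs each. Cells of 1 class share a library and their thinned depth, so these values are descriptions. Against the sum of the other 9, Fos had a rho of 0.715 in macrophages, 0.704 in Leydig cells and 0.676 in fibroblasts, and Egr1 0.700 in fibroblasts. Atf3 had the lowest rho of the 10 in fibroblasts (0.274) and Leydig cells (0.225), but 0.481 in macrophages, where it was most abundant. Dusp1 was loosest in myoid or smooth muscle cells, at 0.216, the class in which its level was low among the upper 5.

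The genes outside the 10 whose counts followed the summed members most closely over cells, by the mean rho over the 5 testis classes of at least 200 cells, were Jund (0.400), Socs3 (0.323), Klf4 (0.310), Zfp36l1 (0.300), Klf2 (0.291), Cebpd (0.284), H3f3b (0.262) and Rhob (0.253). The median over 2872 genes was -0.00183. Jund encodes another Jun protein, Socs3 a feedback inhibitor of cytokine signalling, Klf2 and Klf4 Krüppel-like factors, Zfp36l1 a relative of Zfp36, and Cebpd a C/EBP factor. Of these 8, Jund had the highest rho in macrophages and in myoid or smooth muscle cells, Klf4 in fibroblasts and Sertoli cells, and Socs3 in Leydig cells. Cebpd followed the members in fibroblasts (0.435) and hardly in macrophages (0.0401).

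Macrophages were the class that both libraries held in number, 2173 in the testis and 1054 in the cauda. Of the 10 genes with the largest fold in each, Lyz2, Pf4, C1qa, C1qb and C1qc were shared. The others were Wfdc17, Ctss, Csf1r, Tyrobp and Cx3cr1 in the testis, and Alox15, Slpi, Fn1, Prg4 and Tgfb2 in the cauda. The gate did not match macrophage types, and the part of type in the ratios was not tested. The summed members stood at 20411 CPM in testis macrophages and 963 CPM (949 to 978) in cauda macrophages, a ratio of 21.2 (20.9 to 21.5). All 10 members were at least 2-fold higher in the testis, where 21.0% of 12885 genes were. The ratio of single members ran from 489 (379 to 643) for Fosb, at 1547 against 3.16 CPM, to 4.24 (4.07 to 4.42) for Btg2, at 705 against 166 CPM. Fos differed by 241-fold (216 to 270), at 4142 against 17.2 CPM, and Jun by 90.3-fold (84.5 to 96.7), at 4179 against 46.3 CPM. Atf3 at 37.3-fold, Egr1 at 35.9-fold, Dusp1 at 16.6-fold, Zfp36 at 12.6-fold, Junb at 9.28-fold and Ier2 at 6.52-fold lay between. The members with the highest levels in cauda macrophages, Junb at 293 CPM, Btg2, Zfp36 at 126, Ier2 at 124 and Dusp1 at 107, were the 5 with the smallest ratios. The cauda level is the divisor of the ratio, so this link is in part arithmetic.

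**Figure D5:**
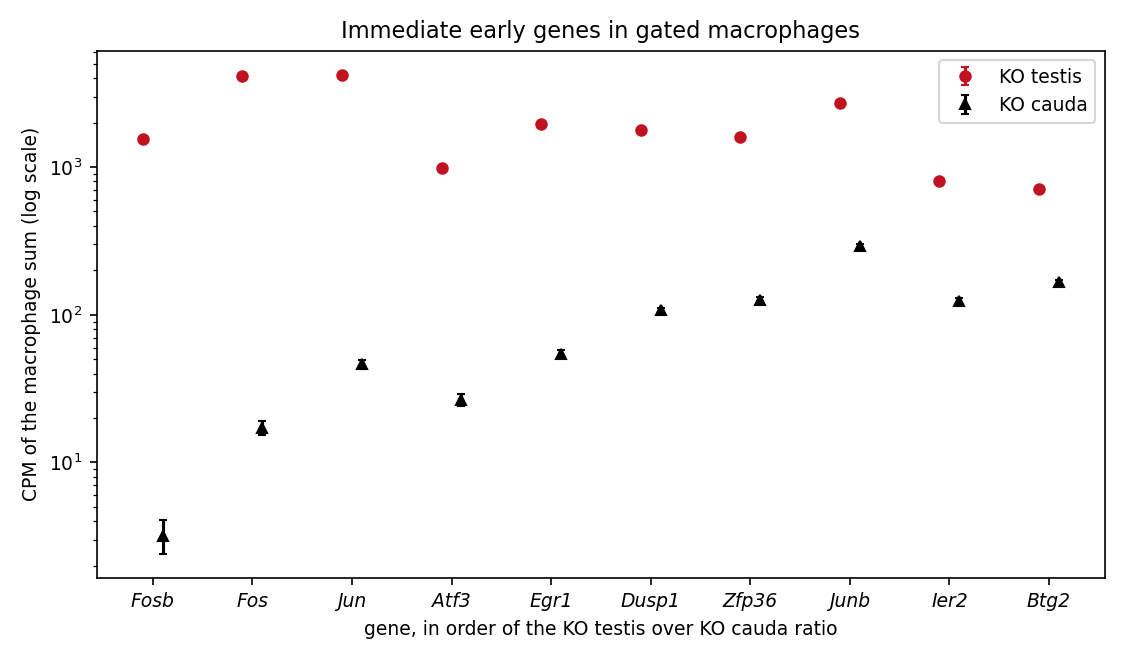
CPM of each gene in the summed UMIs of gated macrophages, on a log axis, for the KO testis (circles) and the KO cauda (triangles), with exact Poisson 95% intervals that are mostly smaller than the symbols. Genes are ordered by their ratio, from Fosb at 489-fold on the left to Btg2 at 4.24-fold on the right, and the testis value is higher for each of the 10.

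In cells thinned to equal depth the difference was as clear, which restates the CPM ratio. Unthinned, a testis macrophage held a mean of 118 member UMIs at a median depth of 5572 UMIs. A cauda macrophage held 17.1 at a median depth of 17185, so in molecules per cell the difference was smaller than in CPM. At 2000 UMIs a cauda macrophage held a mean of 1.96 member UMIs (SD 1.93) against 42.4 in the testis. A UMI of at least 5 of the 10 members was seen in 1.73% of cauda macrophages, and of none in 20.5%. Fos was found in 3.37% of thinned cauda macrophages against 93.3% in the testis, and Junb, the most abundant member there, in 42.8% against 90.8%. In the cauda the shares lay near those of a Poisson spread, with Egr1 the main exception at 7.90% against 11.5%. At such low means a share is largely set by the mean, so these shares say little about evenness. The 10% of cauda macrophages with most member UMIs held 31.1% of them, where a Poisson spread gives 23.9%. Testis macrophages with summed MHC class II UMIs (H2-Aa, H2-Ab1, H2-Eb1 and Cd74) above their median held 22577 CPM of members and the others 18383, while in the cauda the values were 956 and 972.

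The lymphocytes of the cauda held fewer member UMIs still. B lymphocytes stood at 598 CPM (587 to 609) and T or NK lymphocytes at 454 CPM (409 to 503). The make-up differed from that of the 8 ranked testis classes: Btg2 took 45.2% of the member UMIs of cauda B lymphocytes, at 270 CPM, and Junb 30.4% of those of cauda macrophages, whereas Fos took 0.992% and 1.78%. The 18 T or NK lymphocytes of the testis, too few to be ranked, had Junb at 37.7% and Fos at 7.87% of their member UMIs. In both lymphocyte classes Btg2, Junb and Ier2 led, and Fos, Fosb and Egr1 stood at 19.4 CPM or less.

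Other genes of the early response, a list of 25 of which 24 were measured, differed between testis and cauda macrophages as the members did. In testis against cauda macrophages 19 of the 24 were at least 2-fold higher and 0 at least 2-fold lower, where 21.0% and 10.5% of all genes were, with a median log2 ratio of 3.36 beside 0.27 for all genes. Jund was 7.38-fold higher (1487 against 202 CPM), Ier3 12.0-fold and Klf4 5.07-fold, while Klf2 differed by 1.43-fold (1.40 to 1.46). Between testis classes, 11 of the 24 were at least 2-fold above the mean of the other classes in macrophages, 9 in endothelial cells and 7 in fibroblasts, where 11.1%, 18.8% and 7.60% of all genes were. In the same classes 5, 4 and 5 were at least 2-fold lower, where 41.3%, 24.8% and 30.9% of all genes were, among them Socs3 and Myc in macrophages. Myoid or smooth muscle cells had 3 of the 24 higher and 2 lower, and pericytes 6 higher and 4 lower. Of all genes 10.7% and 21.8% were at least 2-fold higher in these 2 classes, so their counts of higher genes lay near the share of all genes. In the lower classes 22 were at least 2-fold lower in Leydig, 17 in Sertoli and 23 in germ cells, beside the 42.5%, 33.8% and 27.8% of all genes. Ier3 was highest in endothelial cells, at 2074 CPM, and Klf4 in fibroblasts, at 1866 CPM. The wider list thus shared the low levels of the Leydig, Sertoli and germ classes, while its count past 2-fold was highest in macrophages and not in fibroblasts.

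Heat shock genes differed less between the libraries. In testis against cauda macrophages 4 of 10 were at least 2-fold higher, where 21.0% of all genes were, with a median log2 ratio of 0.54, and those with most UMIs changed little: Hspa8, a constitutive chaperone, by 1.33-fold (1.30 to 1.36), Dnaja1 by 1.42-fold, Hspe1 by 1.38-fold and Hspd1 by 1.32-fold. The 4 past 2-fold were Hspa1a at 12.6-fold, Hspa1b at 2.84-fold, Dnajb1 at 4.44-fold and Hspb1 at 23.7-fold, while Hsph1 differed by 1.48-fold and Hsp90aa1 by 1.33-fold. Between testis classes 3 of 10 (Hspa1a, Hspa1b and Dnajb1) were at least 2-fold higher in fibroblasts than the mean of the other classes, where 7.60% of all genes were. Another 3 (Hsp90aa1, Hsph1 and Hspb1) were at least 2-fold lower in fibroblasts, where 30.9% of all genes were. The median log2 ratio of the 10 in fibroblasts was -0.21, beside -0.46 for all genes. By the same measure 7 of 10 were at least 2-fold lower in macrophages (median log2 ratio -1.29), 6 in endothelial cells (median -1.48) and 5 in Leydig cells, beside 41.3%, 24.8% and 42.5% of all genes. Hspa8 ran from 649 CPM in myoid or smooth muscle cells to 1298 in germ cells, the class lowest in the members. Hspe1, a mitochondrial chaperonin, was highest in Leydig cells at 987 CPM.

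The components that carry the signal to these promoters differed less than the members. Of 14 signalling genes, 1 (Mrtfb, at 2.08-fold) was at least 2-fold higher in testis than in cauda macrophages, where 21.0% of all genes were, with a median log2 ratio of 0.21. Among those with most UMIs, Map2k2 differed by 1.46-fold, Mapk3 by 1.59-fold and Atf1 by 0.944-fold (0.835 to 1.07). Of 7 genes of the glucocorticoid response, 4 (Fkbp5, Per1, Sgk1 and Tsc22d3 itself) were at least 2-fold higher in testis macrophages, where 21.0% of all genes were, with a median log2 ratio of 1.12. Zbtb16 was at least 2-fold lower, with a ratio of 0.304, where 10.5% of all genes were. Sgk1 differed by 2.18-fold and Fkbp5 by 3.17-fold, and Nr3c1, the glucocorticoid receptor, by 1.37-fold (1.29 to 1.46), while Klf9 stood at 78.9 CPM in the testis and 145 in the cauda. Messenger level does not show whether these kinases or the receptor were active.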

How the data were processed

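The deposited matrices hold raw UMI counts for each gene and barcode, as whole numbers without normalization. Cell Ranger 6, Seurat 4.2.1 and GRCm38.p6 are listed in the submitters' processing notes, and both matrices were written by Cell Ranger 6.1.2, per the file headers. The members and gene lists were chosen with earlier results of these data known. A cell took the class of the marker set with most UMIs, of 18 sets, if that set had at least 10 UMIs (40 for Leydig, Sertoli and erythroid, whose transcripts reach barcodes of every class), at least 3 detected markers, and every other set at most 50% of it. Myoid and pericyte sets were summed first, and the cell was called pericyte with at least 10 pericyte UMIs and myoid or smooth muscle with at most 2. These thresholds were set after seeing the data. CPM is the UMIs of a gene over those of the class, times 1000000. Intervals are exact (Poisson for CPM, conditional binomial for ratios, Clopper-Pearson for shares). Genes with at least 20 UMIs over the classes compared were measured, and a fold of 2 counted as past the size rule. The interval code was tested on simulated data. The 8 genes named as most like the members had a UMI in at least 10% of thinned cells, and of each list the 4 with most testis UMIs, or those past 2-fold where these were 5 or fewer, were named. Heat shock, glucocorticoid and signalling genes past 2-fold, and Socs3, Myc and Cebpd in single classes, were picked after their values were seen. The value of 1 signalling gene that the rule names is not reported here. Each cell's doublet score was the part of simulated doublets (2 for each cell) among its 30 neighbours, and high-scoring cells stayed in the main values. Clusters, used as an alternative, were Leiden groups (resolution 0.5) of a graph with 15 neighbours per cell, on 2000 variable genes and 30 components. Promoters and their motifs come from the RefSeq table of GRCm38.p6, and gene spans from GENCODE M21 on GRCm38. Python 3.11.15, numpy 2.4.6, scipy 1.17.1, pandas 2.3.3 and leidenalg 0.10.2 were used.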

Additional observations from a re-analysis of the deposited data

How the results depend on the processing

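In each of the 9 alternatives that gave a value, all 10 members remained at least 2-fold higher in testis than in cauda macrophages, fibroblasts stood highest and Leydig cells above Sertoli cells. The ratio of the highest to the lowest testis class was 45.04 without doublet-scored cells, and 9.699 with clusters in place of gated cells, where the germ and endothelial classes were not named and the ratio is that of fibroblasts over Sertoli cells. The macrophage ratio of testis over cauda was 20.82 without a mitochondrial limit and 20.74 with each cell weighted equally. The share of member UMIs in the top 10% of Leydig cells was 26.04% with at most 10% mitochondrial UMIs, 27.95% without doublet-scored cells, 28.64% thinned to 1000 UMIs and 26.55% thinned to 4000 UMIs. Pericytes, macrophages and endothelial cells changed places among themselves, with ranges of 19433 to 23819, 20026 to 21701 and 19876 to 24065 CPM, and Sertoli cells ran from 2018 to 3441 CPM. No paired analysis was possible because each group has 1 library. With 3 UMIs as the limit for a gene not seen, the floor is 0.0223 CPM in the testis and 0.0717 CPM in the cauda, and few cells limit the endothelial, pericyte and germ values. Differences between animals were not measured.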

Other observations

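The 480 barcodes of the Leydig gate with over 20% mitochondrial UMIs, left out of the classes, had 6620 CPM of members (6542 to 6700) at a median depth of 6617 UMIs, close to the 6283 CPM of the Leydig cells that were kept. The 2814 unassigned testis cells stood at 13807 CPM, between Leydig cells and macrophages. Of the 20 genes outside the members that followed them most closely over cells, 10 belong to the list of other early response genes. At the other end, Cox6c (mean rho -0.119), Ndufa4 (-0.101) and Ndufc1 (-0.099), which encode subunits of the respiratory chain, and Defb19 (-0.108) went most against the members over cells of the 5 classes.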
